A study of Homo sapiens with 13 samples.

Results

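Chromatin accessibility around 10 genes of the regulated secretory pathway was compared between the small cell lung cancer (SCLC) lines H82 and H146. The genes are the granins CHGA, CHGB, SCG2, SCG3 and VGF, the convertase chaperones and inhibitors SCG5 and PCSK1N, and the processing enzymes PCSK1, PCSK2 and CPE. They were chosen by name, and all 10 were found among the 20033 protein-coding genes of GENCODE release 44 on hg38. ATAC-seq, which marks open DNA by letting a transposase insert adapters there, had been carried out on 13 samples, all labelled wild type. H146 gave 4 untreated samples and 3 treated for 14 days with 100 nM FHD-286, which blocks the ATPase activity of the chromatin remodellers SMARCA4 and SMARCA2. H82, of the NEUROD1 subtype, gave 3 untreated and 3 exposed to the same dose for the same time. Each line had 1 pooled atlas, a list of region starts and ends merged over its untreated and treated samples, so each value below is 1 number per line. No effect of FHD-286, no spread between replicates and no depth per library could be read from these lists, and no test between the lines was made. A site open in few cells and a site weakly open in many cells cannot be told apart.

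Granins are acidic proteins that condense with prohormones in the Golgi and fill the dense-core granules of neuroendocrine cells, and several are themselves cut into active peptides. Inside the granule, prohormone convertases cut at pairs of basic residues, and a carboxypeptidase then trims the exposed ends. CHGA is a long-used serum and tissue marker of neuroendocrine tumours. Neuroendocrine SCLC is known for this granule programme, which is held down in non-neuronal cells by the repressor REST through its RE1 element.

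Of the 10 genes, 5 carried an exact CRE, the word TGACGTCA that is bound by CREB-family factors, in the 250 bp before the canonical start site (the start of the MANE Select transcript). The word was present in 2.41% of the 20033 protein-coding promoters of the same length. In these 5 genes all of the 150 bp before the start site lay inside accessible regions of both lines. The same held for 9 of the 10 members, with or without a CRE, and for 71.2% of all genes. The CRE began 54 bp before the start of CHGA, 107 bp before CHGB, 69 bp before SCG2, 79 bp before VGF and 77 bp before PCSK1. All 5 genes kept the match, and no other member gained one, when 500 bp were searched, where 2.9% of all promoters held the word. The regions of the 10 loci (the gene body with 50 kb to either side) held 5 CREs in each line, which were these 5, or 0.0378 per kb in H82 and 0.0441 in H146. Over the whole atlases the density was 0.00998 and 0.0106 per kb. These are matches to letters and do not show that a factor was bound.

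The other words were also read in the 250 bp before the start. The GC box GGGCGG, read by SP-family factors, was found before 7 of the 10 genes and 59.0% of all promoters, with PCSK2 holding the most of the members. The TATA box TATAAA was found before SCG2 and VGF (9.34% of all promoters), at 139 bp before the start in SCG2 and 32 bp in VGF. Only this exact word was counted, on either strand, so variants of it were missed. The 150 bp before CHGA hold TATATAAG, and those before SCG2 hold CTATAAG nearer the start than the exact word. The AP-1 word TGACTCA occurred in the PCSK1N promoter alone among the members (3.07% of all). SCG3 was the only member with the E-box CAGCTG, at 226 and 174 bp before the start (13.2% of all), and none held CAGATG (9.17%). When 500 bp were searched, PCSK2 also held CAGCTG, 328 bp before its start (23.2% of all). PCSK1 held the OTX2 word TAATCC (5.4% of all), 152 bp before its start, and over 500 bp SCG2 held it too, at 434 bp (15.6% of all). SCG5, PCSK1N and PCSK2 had a GC box and no CRE, and CPE held none of these 7 words.

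**Figure D1:**
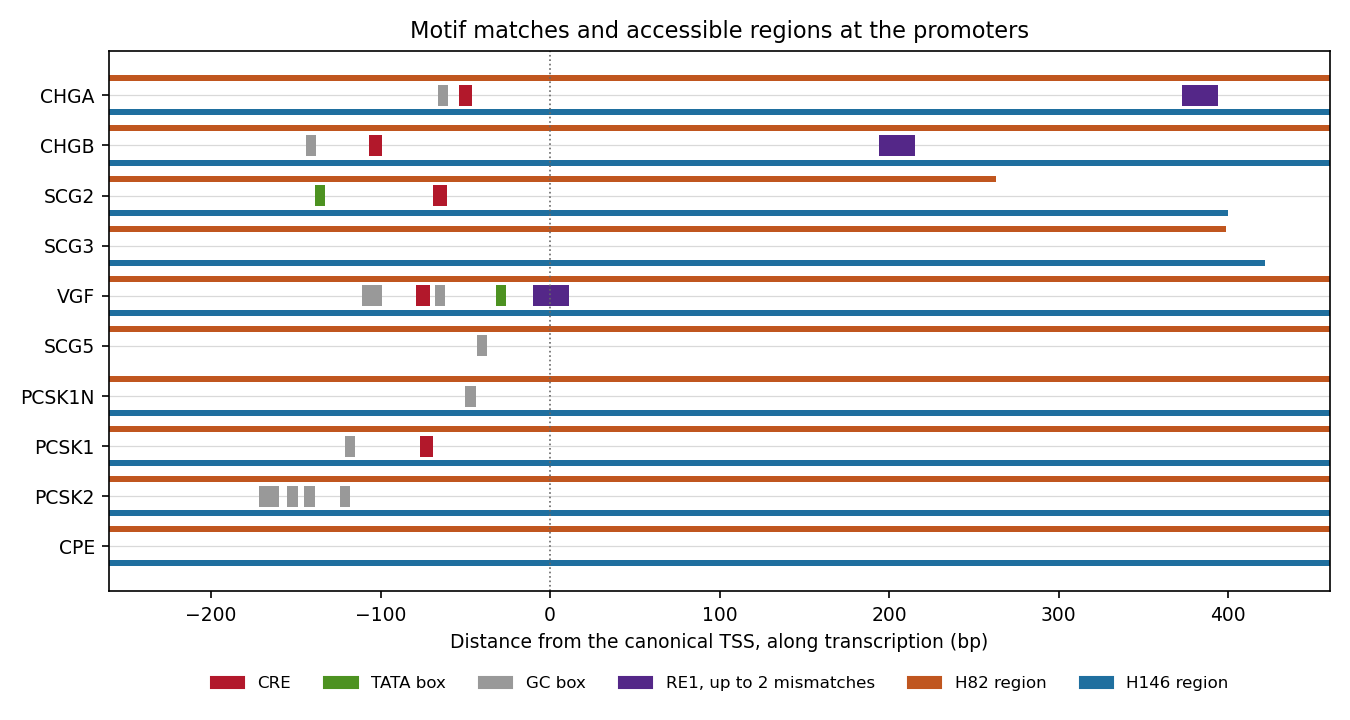
Matches to the CRE, the TATA box, the GC box and RE1 (up to 2 mismatches) by distance from the canonical start site in bp, along transcription, with 1 row per gene; the thin bars above and below each row are the accessible regions of H82 and H146, cut off at the plot's edges. Words are shown over the 250 bp before the start. The CREs sit between 107 and 47 bp before the start, and SCG5 is the only row with no H146 region.

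RE1 was searched as 19 fixed bases over 21 bp, on both strands, with at most 3 mismatches. The member loci held 8 such sites in 4 genes, CHGA, CHGB, VGF and PCSK1, or 5.08 per Mb against 0.659 per Mb of the genome. With at most 2 mismatches there were 583 sites in the genome, and 4 of them lay in the member loci. These 4 are shown with the 21 bp in capitals, 5′ to 3′ on the strand of the match. They lie at chr14:92923523-92923543 plus in CHGA, chr20:5911704-5911724 plus in CHGB, chr7:101165559-101165579 plus in VGF and chr5:96484053-96484073 plus near PCSK1.
CHGA: agttTTCAGCACCGCGGACAGCGCCtccg
CHGB: gccgGTCAGCACCGCGGACAGCGCCagcc
VGF: cggcTTCAGCACGCTGGACAGCGCCcgcg
PCSK1: aaacTTCAGAACCTAGGACAGCACCtgca
The CHGA site had 0 mismatches and lay in an intron, centred 383 bp after the start. The CHGB site had 1 mismatch and was also intronic, centred 204 bp after the start, and the VGF site, with 1 mismatch, spanned the start itself. All 3 lay inside the promoter regions of both lines. The PCSK1 site had 2 mismatches, lay in intergenic DNA 50.8 kb before the canonical start, and fell in a region of 386 bp that H82 had and H146 did not. Per kb of region, RE1 with at most 3 mismatches was found 0.0378 times at the member loci in H82 (5 sites) and 0.0353 times in H146 (4 sites), against 0.00303 and 0.0027 in the whole atlases.

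One property of the 2 lists bears on every statement that a region was shared. Of the H82 regions, 35829 started on exactly the base where an H146 region started, and 35862 ended on the same base as an H146 region. At each other offset of up to 10 bp to either side, only 114 to 547 starts or ends coincided. In all, 25.3% of H82 and 30.0% of H146 regions had an identical start or end in the other list, which is 42.7% of the H82 regions that overlapped H146. At the member loci, 34 of 157 H82 regions (21.7%) and 34 of 129 H146 regions (26.4%) did, and 13 were identical at both ends. The cause was not tested. Of the promoter regions, CHGB had the same start and PCSK2 the same end in both lists, and those of the 7 other members with a region in both lines differed at both ends.

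A region within 1 kb of the gene's 5′ end was present in both lines for 8 of the 10 members, against 75.4% of all protein-coding genes. SCG5 had one in H82 only (5.1% of all genes), no member had one in H146 only (1.86%), and CPE had one in neither line (17.7%). The CPE result followed from the start used, since the annotated 5′ end lies 17814 bp upstream of the canonical start. At canonical starts, 9 members including CPE had a region in both lines (77.8% of all genes) and SCG5 had one in H82 only (4.74%). The 150 bp before the canonical start lay wholly inside a region in both lines for the same 9 genes, against 71.2% of all genes. For SCG5 all 150 bp were covered in H82 and none in H146, a pattern held by 3.64% of all genes. Without the regions that had an identical start or end, 6 members kept a region at the 5′ end in both lines, CHGB and PCSK2 dropping out.

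The promoter regions of the granins ranged widely in width. VGF, whose peptides act in energy balance and neuronal plasticity, had a region of 8618 bp in H82 and 11346 bp in H146, at the 98.3 and 99.3 percentiles of all genes with a region there. The H146 region took in the whole span of 2 separate H82 regions, of 8618 and 705 bp, and the VGF gene body was covered to 100% in both lines. SCG2, the precursor of secretoneurin, had the narrowest, 525 bp in H82 and 765 bp in H146 (percentiles 6.71 and 10.8). SCG3, which binds CHGA at the granule membrane, had 895 and 911 bp. CHGA had 2454 and 2528 bp and CHGB, its close relative in the granule core, 2042 and 2234 bp.

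Among the enzymes, PCSK1, the convertase that makes the first cuts in many prohormones, had promoter regions of 3074 bp in H82 and 3232 bp in H146. PCSK2, the convertase that cuts further, had 3629 and 3367 bp. CPE, the carboxypeptidase that trims the cut peptides, had 2288 and 1648 bp at its canonical start. PCSK1N, which encodes the convertase inhibitor proSAAS, had 1656 and 2291 bp. H146 had the wider region at 7 of the 8 members with a region in both lines at the 5′ end, against 52.1% of such genes overall. PCSK2 was the exception, and CPE, which this count leaves out, was also wider in H82 at its canonical start.

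**Figure D2:**
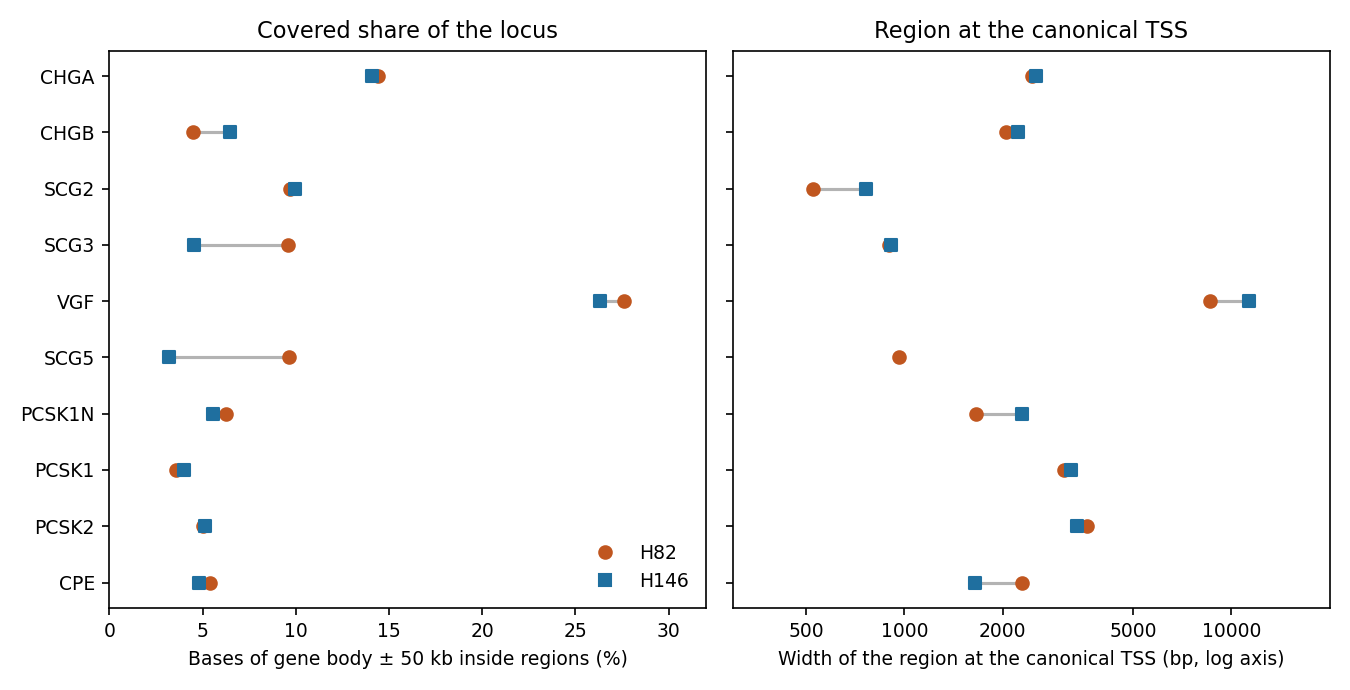
Left, the share of bases of the gene body with 50 kb to either side that lie in accessible regions, in percent; right, the width in bp of the region at the canonical start, on a log axis, with 1 row per gene, circles for H82 and squares for H146 and 1 value per line. SCG5 (9.61% and 3.19%) and SCG3 (9.59% and 4.56%) have the widest gaps on the left, and SCG5 has no H146 point on the right.

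SCG5 encodes the chaperone that PCSK2 needs to become active and that also inhibits it. Its promoter region in H82 was 965 bp wide, at chr15:32641345-32642309, and no H146 region touched it. The 150 bp before the annotated 5′ end are shown because they lay in a listed region in H82 only, with the single GC box in capitals. They lie at chr15:32641526-32641675 on the plus strand.
SCG5: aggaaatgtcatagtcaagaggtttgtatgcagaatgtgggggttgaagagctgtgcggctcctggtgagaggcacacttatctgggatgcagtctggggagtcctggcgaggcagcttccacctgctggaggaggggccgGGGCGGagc
The SCG5 locus held 18 regions in H82 and 9 in H146, and each of the 9 in H146 overlapped one in H82. Regions took up 9.61% of its bases in H82 and 3.19% in H146, a log2 ratio of 1.50 with 500 bp added to both, at the 94.4 percentile of all genes. Without the regions that had an identical start or end it was 1.62. That setting takes overlapping regions out of both lines, so the larger ratio is no separate support for a difference. Inside the gene body the share was 8.79% and 4.86%, from 9 and 5 regions, all centred in introns. The nearest H146 region, of 729 bp, lay in an intron, centred 4.63 kb after the start, 97.7% of its bases inside an H82 region of 1367 bp. The readthrough gene ARHGAP11A-SCG5 spans SCG5, so a region there is not particular to SCG5. The widest regions of the locus were 2985 bp in H82, inside GOLGA8N, and 1306 bp in H146, at the start of ARHGAP11A. Of the H82-only regions of this window, 1 of 1049 bp lies at the start of GOLGA8N, 1 at that of GREM1, and 1 of 526 bp at that of ARHGAP11A-SCG5. GOLGA8N is a member of a family of near-identical copies to which reads may not be assigned with certainty. The same limit holds for the 2985 bp region and for the H146 region of 536 bp inside it. All of these count in the covered shares of the locus.

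The difference at SCG5 did not stand alone on its chromosome. In the 1 Mb to either side of the window, H82 had 117 regions covering 4.45% of the bases and H146 had 33 covering 0.723%. The log2 ratio there was 2.58, and 74 of the 20033 genes (0.369%) had surroundings with a ratio as high. Relative to its surroundings, the SCG5 locus thus stood at -1.08. In the 9 steps of 100 kb that run from 100 to 1000 kb after the start, H146 was covered to at most 0.76% and H82 to at most 12.7%. Between 1300 and 1400 kb before the start the shares were 25.9% and 20.8%. The part of the surroundings in the SCG5 difference was not tested.

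**Figure D3:**
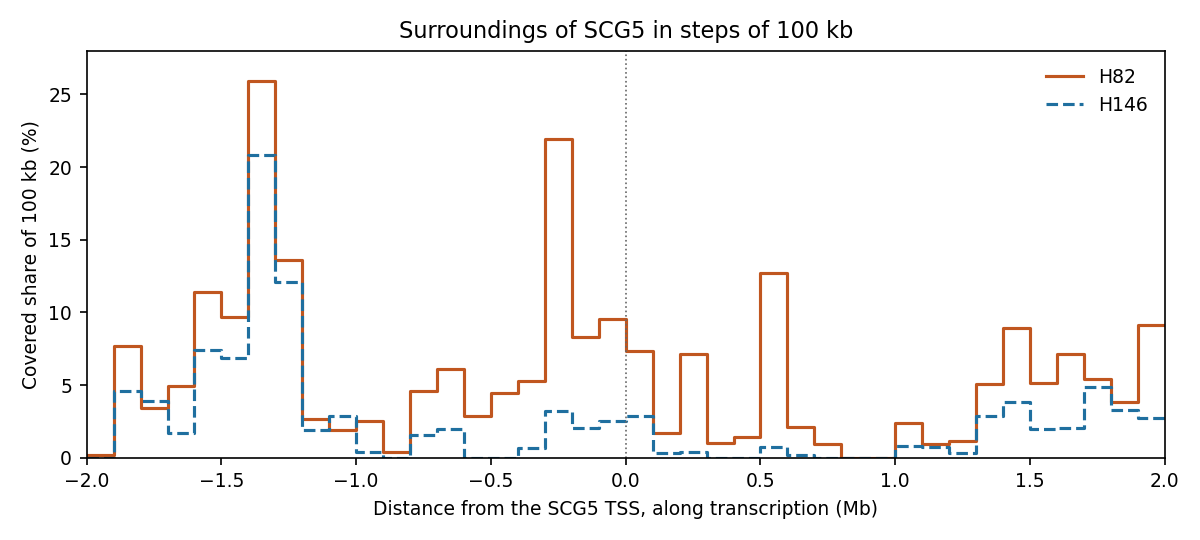
Covered share in percent of consecutive steps of 100 kb within 2 Mb of the SCG5 start, by distance in Mb along transcription, as 1 line for H82 and 1 dashed line for H146. H146 stays at or below 3.19% from 1 Mb before to 1 Mb after the start, where H82 reaches 21.9%.

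SCG3 had the second largest difference. Its locus was covered to 9.59% in H82 by 16 regions and to 4.56% in H146 by 8, a log2 ratio of 1.02. The ratio was 1.39 without the regions that had an identical start or end, which again takes overlapping regions out of both lines. The promoter regions hardly differed, at chr15:51681007-51681901 in H82 and chr15:51681014-51681924 in H146. Of the 16 H82 regions 9 were H82-only. The widest of these were intergenic, of 2329 and 1467 bp, centred 11.9 and 8.7 kb before the gene's 5′ end. An intronic one of 977 bp was centred 36.7 kb after that end. A shared H82 region of 2241 bp in TMOD2, which ran past the window's edge, had 22.4% of its bases in H146 regions. The widest H146 region, of 1734 bp, lay at the starts of LYSMD2 and TMOD2. H146 had a single region of its own inside the gene, an intronic one of 302 bp. Here too the surroundings moved the same way, with 5.72% in H82 and 3.19% in H146 and a log2 ratio of 0.84, which left 0.18 for the locus. SCG3 and SCG5 are both on chromosome 15.

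The other granin loci differed little between the lines or leaned to H146. CHGA had 18 regions in each line, 14 of them shared, covering 14.4% of its bases in H82 and 14.1% in H146. An H82-only region of 1419 bp lay 11.6 kb before its start, and the widest pair, of 3656 and 4009 bp, lay downstream in the gene ITPK1. CHGB had 6 regions in H82 and 10 in H146, covering 4.5% and 6.47% of its bases, the lowest log2 ratio of the members at -0.48 (percentile 6.91). Its 6 H146-only regions were 200 to 643 bp wide. Its surroundings stood at -0.29, in the same direction.

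The narrow SCG2 promoter region stood among wide intergenic ones. The SCG2 locus was covered to 9.67% in H82 and 9.94% in H146, by 14 and 12 regions, and all 12 H146 regions overlapped H82. The widest pair, of 1703 and 1845 bp, was centred 11.3 kb before the start, and 3 more pairs lay 10.9 to 16.1 kb after it, past the end of this 5.42 kb gene. Of the 14 H82 regions, 12 (85.7%) lay wholly inside H146 regions, against 40.0% of all H82 regions of the whole atlas. These 12 were all of the shared ones, and 8 of them had an identical start or end. The surroundings of SCG2 were covered more in H82 (4.97% and 3.56%, log2 0.48).

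VGF lay in the densest locus, covered to 27.6% in H82 by 24 regions and to 26.3% in H146 by 21, against medians of 7.52% and 6.16% over all genes. In each line 4 of these regions lay at the starts of other genes, among them AP1S1, NAT16 and MOGAT3. Its log2 ratio was 0.07, while its surroundings stood at 0.66 (17.7% and 11.2%).

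**Figure D4:**
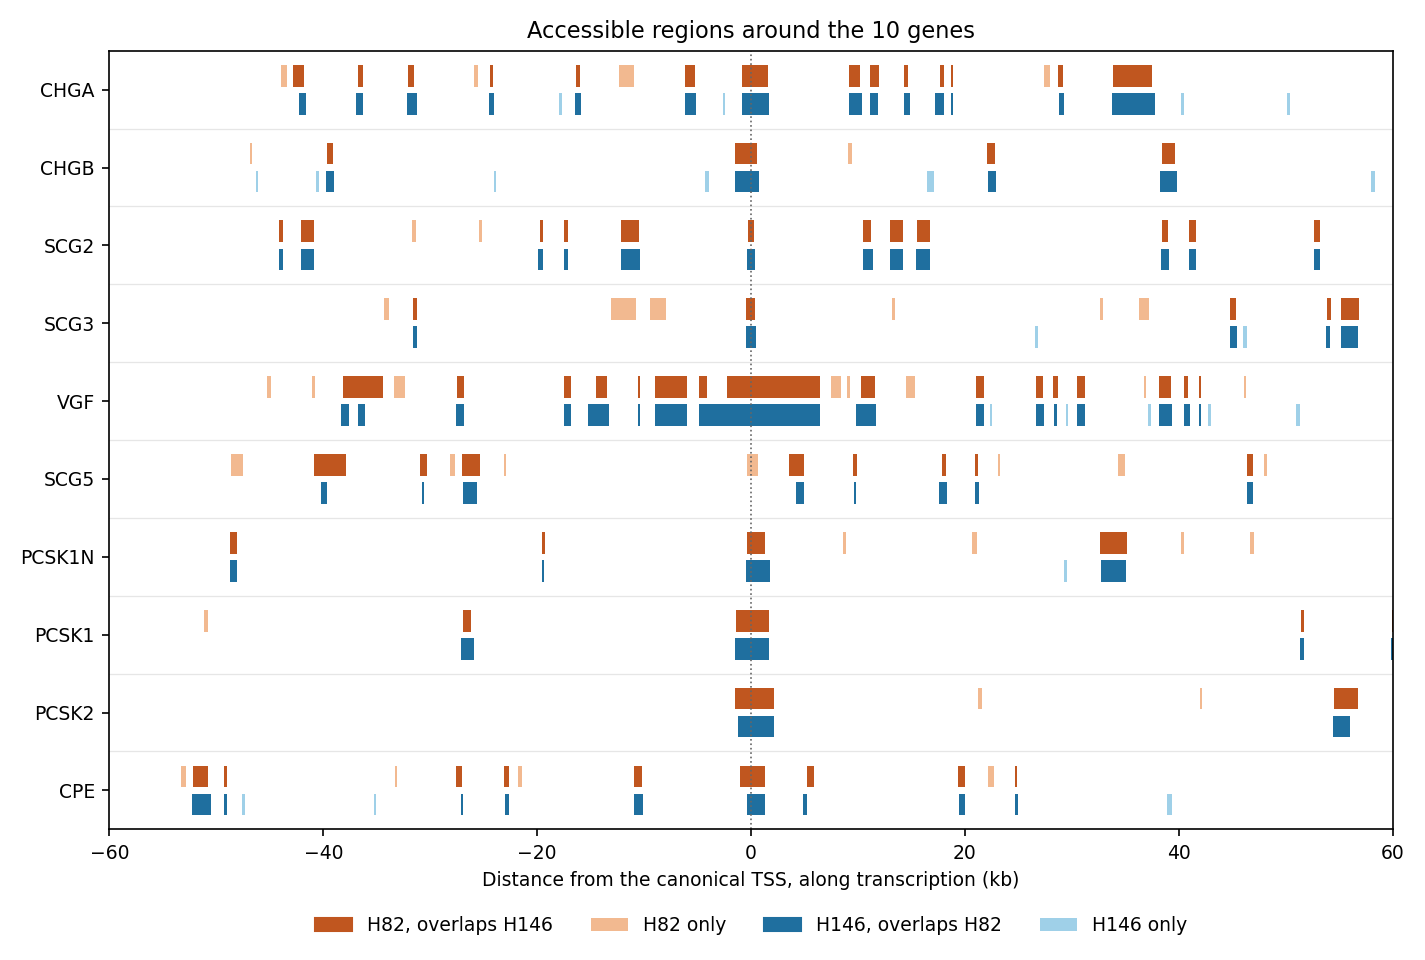
Accessible regions by distance in kb from the canonical start, along transcription, in a row for H82 above a row for H146 for each gene; dark bars overlap the other line and pale bars do not, and the plot is cut at 60 kb, so it shows part of PCSK2 and CPE. Regions of both lines stand at the start in every gene but SCG5, and the SCG3 rows show pale H82 regions of 2329 and 1467 bp before the start.

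PCSK1 had the sparsest locus in H82, with 7 regions covering 3.56%, against 5 covering 3.98% in H146. Apart from the promoter region, its 43.8 kb gene body held no region in either line. All 5 H146 regions overlapped H82, among them an intergenic one of 1172 bp centred 25.6 kb before the 5′ end that was 719 bp wide in H82. PCSK2, a gene of 258 kb, had 21 regions over its body in H82 and 17 in H146, covering 5.74% and 5.44%. Away from the promoter, its widest intronic region in H82, of 2240 bp, overlapped one of 1602 bp in H146, and its widest in H146, of 1899 bp, overlapped one of 1756 bp in H82. Of the regions of its locus, 58.3% in H82 and 63.6% in H146 were shared, the lowest shares of the 3 enzymes.

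CPE had 22 regions in H82 and 19 in H146, covering 5.39% and 4.79%, and 14 were shared in each line. Its widest H146 region, of 1713 bp, lay at the start of MSMO1. PCSK1N, on the X chromosome, had 8 and 5 regions covering 6.26% and 5.57%, of which a pair of 2526 and 2337 bp belonged to the start of HDAC6. The surroundings of PCSK1N were covered to 8.23% in H82 and 4.1% in H146 (log2 1.0), and its own log2 ratio was 0.16. The ratios of PCSK1 (-0.15), PCSK2 (-0.04) and CPE (0.16) lay within 0.26 of those of their surroundings.

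Over the 10 loci together, 1574 kb long, regions covered 131 kb (8.3%) in H82 and 113 kb (7.21%) in H146. The locus share was higher in H82 for 6 members, against 63.7% of all genes, and the gene body share for 5, against 51.9%. The locus log2 ratio was 1 or more for 2, SCG3 and SCG5 (13.2% of all genes), and -1 or less for 0 (0.834%). For gene bodies 0 members reached 1 (12.0%) and 0 reached -1 (1.35%). H82 had more regions at 8 loci (62.0% of all genes). The median log2 ratio was 0.05, from -0.48 to 1.50, against 0.18 over all genes and 0.27 for the whole atlases. Set against the surroundings, 3 members were above 0 (CHGA, SCG3 and CPE) and SCG5 was at -1 or less. No share of all genes is given for these counts, so whether they are unusual cannot be read.

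**Figure D5:**
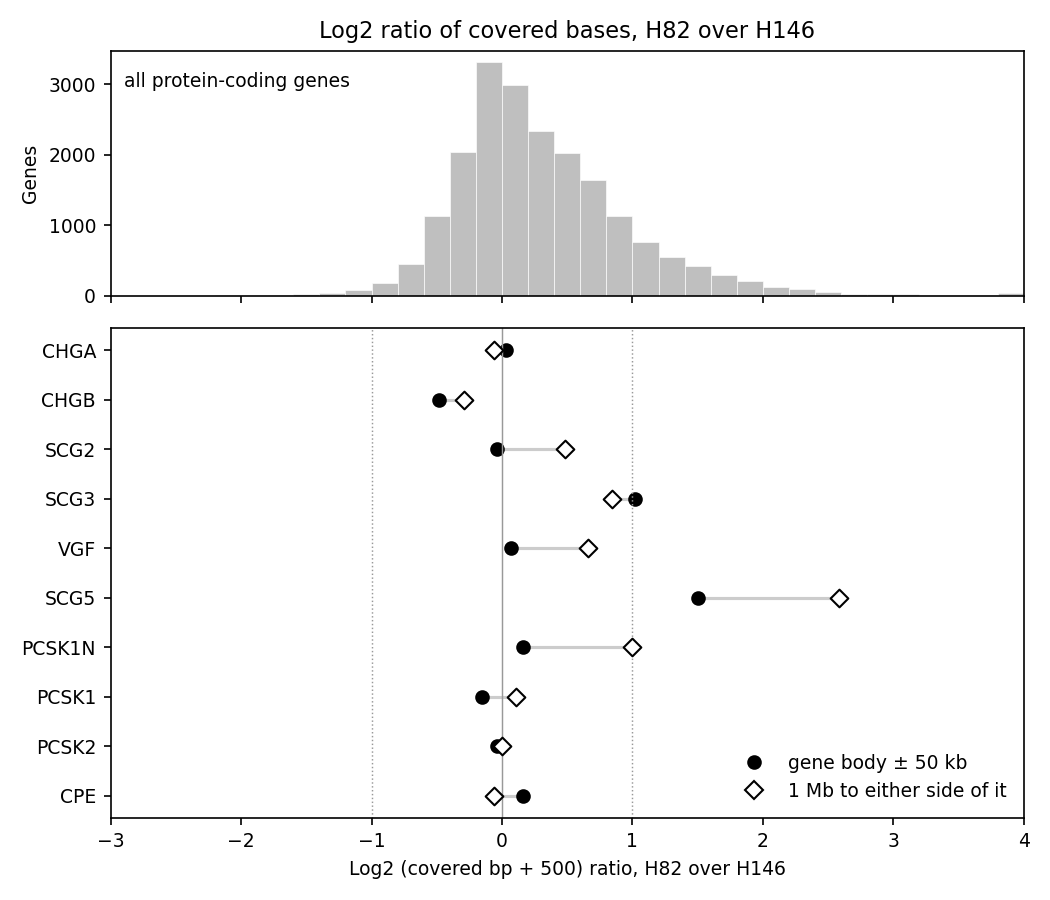
Above, the number of protein-coding genes by log2 ratio of covered bases, H82 over H146, in the gene body with 50 kb to either side, with ratios past 4 counted in the last bar; below, the same ratio for each member (dots) and that of the 1 Mb to either side (diamonds), with dotted lines at a log2 ratio of 1 and -1. SCG5 stands at 1.50 with surroundings at 2.58, and the ratios of 7 members lie between -0.15 and 0.16.

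By count H82 had 157 regions and H146 129, so H82 held 54.9% of them (exact 95% interval 48.9 to 60.8%, counting error only), against 54.3% in the whole atlases. Of the H82 regions 99 (63.1%, Wilson 95% interval 55.3 to 70.2%) overlapped H146, against 59.3% of the whole atlas. Of the H146 regions 98 (76.0%, 67.9 to 82.5%) overlapped H82, against 70.5%. The whole-atlas shares lay within these intervals, and regions of a locus are not independent. Shared regions were wider, with medians of 644 bp in H82 and 723 bp in H146, than line-only ones, with 391 and 302 bp. A wider region meets the 1 bp rule more easily, and no such medians of the whole atlases are given. Without the regions that had an identical start or end, 52.8% and 67.4% overlapped the other line, against 45.5% and 57.9% of the whole atlases, a fall that follows from leaving out shared regions only. At other genes' starts lay 13 of the H82 and 9 of the H146 regions, with no whole-atlas share to set beside them.

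Inside the regions of the 10 loci, other words were counted in the same way and set against the whole atlases. AP-1 was found 0.235 times per kb in H82 and 0.264 in H146, against 0.202 and 0.217. OTX2 was found 0.492 and 0.291 times per kb, against 0.68 and 0.416. The E-box CAGATG was found 0.961 and 0.837 times, against 0.932 and 0.807, and CAGCTG 0.772 and 0.767 times, against 0.823 and 0.826.

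The remaining genes of the pathway were read from lists chosen with these data known. Of 13 further processing enzymes, 11 had a region at the 5′ end in both lines, and PCSK6 and CPM had one in neither, against 75.4% and 17.7% of all genes. The locus ratio was 1 or more for 3 of them, against 13.2% of all genes. These were FURIN, the convertase of the constitutive pathway (32.3% in H82 and 11.4% in H146, log2 1.46), PCSK4 (55.1% and 19%, 1.51) and PCSK5 (7.08% and 3.46%, 1.02). The log2 ratios of the 1 Mb to either side were 0.72 for FURIN, 1.64 for PCSK4 and 0.45 for PCSK5. None reached -1, CPZ being the lowest at -0.67, and PAM, which amidates peptides, stood at -0.27. Of 15 genes of dense-core vesicle formation and release, all 15 had a region at the 5′ end in both lines (75.4% of all genes). None, 0 of 15, had a ratio of 1 or more (13.2% of all genes) or of -1 or less (0.834%). The highest was CADPS, which primes dense-core vesicles (0.75), and the lowest SYT4, a vesicle synaptotagmin (-0.85). The median log2 ratio was 0.25 for the enzymes and -0.02 for the vesicle genes.

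The 3 genes beyond 1 Mb of SCG5 whose locus shares in the 2 lines were closest to its own, by distance over these 2 values, were SLC44A1 (9.51% and 3.21%), AMD1 (9.5% and 3.23%) and AKR1B10 (9.48% and 3.25%). Among markers of the lines, NEUROD1 had a region at its start in H82 only, and INSM1, SYP and NCAM1 had one in both. POU2F3 and YAP1, genes of other SCLC subtypes, had one in both as well, as did PECAM1, COL1A1 and SFTPC, and PTPRC had one in neither. A region at a start did not by itself separate the cell types of these markers.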

How the data were processed

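ATAC-seq had been carried out on H82 (6 samples) and H146 (7 samples). The authors trimmed reads with Trim Galore 0.4.4, aligned them to hg38 with bowtie2 2.3.4, removed duplicates with Picard, called peaks with MACS2 in every sample, filtered them against a blacklist and merged peaks within 500 bp into 1 atlas per line. The deposited values are region starts (counted from 0) and ends in bp, with no score, count or sample column, so 0 per-sample columns went unused. A region called in any library of a line is listed, so more or deeper libraries can lengthen a list. For H146, 3 controls were sequenced apart from the other control and the treated samples, and the labels do not say which.

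Chromosomes 1 to 22, X and Y were used, and coordinates are given 1-based. A gene's locus was its body with 50 kb to either side. Log2 ratios had 500 bp added to the covered bases of both lines. A region was shared when 1 bp or more of it lay in a region of the other line. The functions were tested on simulated intervals and sequences. Motifs were exact words on both strands of the hg38 reference, except RE1. Intervals cover counting error only. Called means meeting the rule named, since 1 value per line allows no test.

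The 10 genes, the lists and the words were chosen with earlier results of these data known. The naming rule took all 10 genes, each with its promoter region and widest region, the pathway genes past a 2-fold ratio or with a promoter region in 1 line only, and the 3 genes most like the member with the largest ratio. PCSK6, CPM, CPZ, PAM, CADPS and SYT4 fall outside it and were chosen after their values were seen, as were the coincidence of region ends and the regions described singly. Some marker genes, neighbouring genes, motif words and promoter sequences are not reported here. Python 3.11.15, numpy 2.4.6, scipy 1.17.1, matplotlib 3.10.9 and samtools 1.23.1 were used.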

Additional observations from a re-analysis of the deposited data

How the results depend on the processing

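The number of members with a promoter region in both lines ranged from 6, without regions that had an identical start or end, to 10, with windows of 5 or 10 kb. H82 kept 51.9 to 56.4% of the locus regions under 7 alternatives. The 6 members above 0 on the log2 ratio became 2 less the whole-atlas ratio, 3 less the surroundings and 4 with 10 kb of flank. They became 5 with regions of at least 500 bp, with 100 kb of flank and with the gene body alone. Without regions that had an identical start or end they became 7. With the gene body alone they were CHGB, SCG3, SCG5, PCSK2 and CPE. The 2 members at a log2 ratio of 1 or more became 1 with the H82 atlas cut to its widest regions, with 100 kb of flank and less the whole-atlas ratio, and 0 with 10 kb of flank, with the gene body alone and less the surroundings. Less the surroundings, SCG5 reversed to -1.08 and was the 1 member at -1 or less, with no share of all genes to set beside it. The shared share moved to 72.6% in H82 and 83.3% in H146 with regions of at least 500 bp, to 54.1% and 65.9% with overlap of 50% of both regions, and to 52.8% and 67.4% without regions with an identical start or end. RE1 with at most 4 mismatches was found at 8 member loci in place of 4. Asking for 50% overlap, or leaving out regions with an identical start or end, can only lower the shared share. Allowing more RE1 mismatches can only add sites. For the other changes the cause was not tested. The alternative without identical starts or ends was chosen after seeing the data. No paired analysis was possible because each atlas pools all samples of a line, and for the same reason no replicate was left out. Depth per library was unknown, so the absence of a region in a list is not the absence of accessibility.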
